A study of Mus musculus with 3 samples.

Results

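RBFOX2 crosslink clusters that lay deep inside introns, more than 5 kb from any coding exon of their gene, made up 15177 of the 87021 clusters found in primary mouse hepatocytes (17.4%, Wilson 95% confidence interval 17.2 to 17.7). A cluster was taken as deep intronic when its midpoint fell inside a protein-coding gene on the same strand, in no annotated exon of any transcript, and more than 5000 nt from the nearest exon of that gene's protein-coding transcripts. Distances were measured on the GENCODE M21 annotation of GRCm38. No measured value entered the rule, and the annotation alone chose the members.

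The clusters came from eiCLIP, in which proteins are crosslinked to RNA by ultraviolet light, RBFOX2 is immunoprecipitated, and the start of each cDNA marks the crosslinked nucleotide. The 3 libraries form a single group of primary hepatocytes from C57BL6/J mice on a control diet, and the labels give 3 livers and 3 pellets for each. The methods of the study instead describe independent cultures that each came from a pair of mice. The authors pooled the libraries before clusters were called, so each value below is 1 pooled value with no spread between libraries, and no test between samples could be made. Intervals cover counting error only, and the input was not analysed here.

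RBFOX2 is a splicing regulator whose RNA recognition motif binds the sequence (U)GCAUG, and where it binds relative to an exon decides whether it promotes inclusion or skipping of that exon. Many RBFOX sites in mammalian genes are known to lie far from exons, and some act over a distance through RNA structures that bring them close to an exon or through a large assembly of splicing regulators. Long introns also take the polymerase a long time to transcribe, so that sequence near the 5′ end of such an intron exists in nascent RNA before sequence near its 3′ end.

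Sequence could be read for only 63 of the 15177 clusters with 50 nt on either side (0.415%), since bases were read only where a GENCODE M21 transcript, a RefSeq promoter or a RefSeq hairpin of GRCm38 covered them. GCATG stood on the gene strand in 21 of these 63 windows (33.3%, Wilson 95% interval 22.9 to 45.6), in 20 genes, and its reverse complement CATGC stood in 12 (19.0%, 11.2 to 30.4). The letters overlap each other where GCATGC occurs. In the first 131 nt of each RefSeq promoter, a window as long as the median cluster window, GCATG occurred in 9.79% and CATGC in 9.81% of 32851 promoters. The cluster windows varied in length, with clusters of up to 199 nt, and the 2 sets were not matched for length or base composition. The shares are therefore not directly comparable. The windows that follow are shown because they place the motif beside deep intronic clusters, with GCATG in capitals, 5′ to 3′ on the gene strand. The Ube2e2, Map2k1 and Cmss1 windows belong to genes named by rule, and those of Larp1 and Exoc4 were chosen after their values were seen.
Larp1 intron 1, chr11:58027465-58027494 (+): ctttaggtgtttGCATGcttttttgctatt
Ube2e2 intron 2, chr14:18831718-18831747 (-): gggtgctatgcaGCATGgttctcttgtaag
Ube2e2 intron 2, chr14:18831469-18831498 (-): aatatctatacaGCATGagaatgttagggt
Exoc4 intron 10, chr6:33690685-33690714 (+): cttaactcatcaGCATGtatgaggtgccac
Map2k1 intron 1, chr9:64229490-64229519 (-): tacaggacttatGCATGtcatacaggccac
Cmss1 intron 1, chr16:57572116-57572145 (-): actctgaaaattGCATGcttggcgctgatt

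The Larp1 cluster, in a gene for an RNA-binding protein that controls translation of ribosomal protein mRNAs, held 58 counts and lay 12868 nt from the nearest coding exon. Its motif began 4 nt upstream of the cluster's 5′ end. In Exoc4, which encodes a subunit of the exocyst complex, the cluster held 16 counts and lay 67220 nt from an exon, with the motif 13 nt upstream. The paired Ube2e2 clusters held 24 and 16 counts and lay 39731 and 40032 nt from an exon. In the second of them the motif began 2 nt upstream of the cluster, whereas in the first it began 50 nt downstream of the 5′ end. The Map2k1 cluster held 11 counts over 33 nt, and its motif began 63 nt downstream of the cluster's 5′ end. The Cmss1 window belongs to a cluster of 12 counts and 1 nt width, with the motif 18 nt downstream. It is not the Cmss1 cluster of 42884 counts described below. These windows describe the few places where bases were known and cannot stand for the other deep clusters.

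Deep intronic clusters were about as wide as intronic clusters close to exons, and slightly lower in count. Their median width was 24 nt (interquartile range 7 to 70), against 23 nt for the 19586 clusters 0.5 to 5 kb from an exon and 25 nt for the 11078 clusters within 0.5 kb. The median count, the number of pooled cDNAs per cluster, was 16 (12 to 23), against 17 in both nearer classes. Counts at or above 39, which mark the top 10% of all clusters, were reached by 966 deep clusters (6.36%, 5.99 to 6.76). They were reached by 8.46% of those 0.5 to 5 kb away and by 8.98% of those within 0.5 kb. The interval treats clusters as independent. In the runs of 20 or more described below, however, 25.3% of deep clusters reached this level, against 2.80% of those that stood alone. Just beyond the 5 kb threshold, within 500 nt of it, 816 clusters had a median count of 16 and a median width of 24 nt, and 836 clusters just short of it had 16 and 26 nt.

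The summed count of the deep clusters was 373084, or 13.1% of the 2850863 counts in all clusters, and a few positions held much of it. The highest cluster alone took 11.5% and the 10 highest took 15.9%, which left 313915 counts over the other 15167 clusters. The smallest count that the cluster caller passed, 10, was shared by 1411 deep clusters. High counts were rare, with 123 clusters at 100 or more and 4 at 1000 or more.

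Cluster density fell with distance from coding exons but stayed above the opposite strand throughout. Deep intronic sequence of coding genes spanned 454.393 Mb and held 33.4 clusters per Mb (exact Poisson 95% interval 32.9 to 33.9), or 0.0334 per kb. At positions without an annotated gene on the other strand, the gene strand held 33.8 per Mb and the opposite strand 2.89 per Mb (2.73 to 3.05), a ratio of 11.7 (11.0 to 12.4). On the gene strand the density was 79.2 per Mb within 0.5 kb of exons, 50.2 at 2 to 5 kb, 45.7 at 5 to 10 kb, 39.5 at 10 to 20 kb, 29.1 at 20 to 50 kb, 16.3 at 50 to 100 kb and 12.1 beyond 100 kb. The opposite strand stayed between 2.78 and 3.00 per Mb over the deep bins, so the ratio went from 15.4 at 5 to 10 kb to 4.07 (3.27 to 5.10) beyond 100 kb. Inside an intron, positions over 50 kb from exons exist only in introns over 100 kb. Those introns held 28.9 deep clusters per Mb at lengths of 100 to 200 kb and 11.4 above 200 kb. The bins therefore draw on different introns, and distance was not separated from intron length. Expression was not measured in these libraries, and among the 3902 genes with deep sequence that also held a cluster outside it the fall was from 78.5 per Mb at 5 to 10 kb to 21.7 beyond 100 kb.

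**Figure D1:**
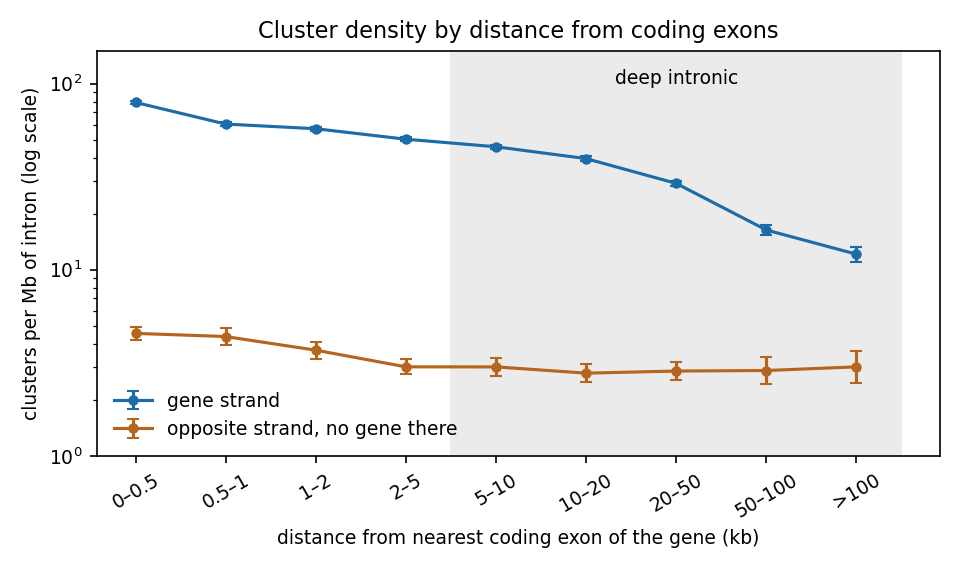
Clusters per Mb of intron (log scale) by distance from the nearest coding exon in kb, for the gene strand over all intronic positions and for the opposite strand where no gene is annotated; points are pooled values and bars exact Poisson 95% intervals. In the shaded deep bins the gene strand falls from 45.7 to 12.1 per Mb, while the opposite strand stays between 2.78 and 3.00.

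The excess over the opposite strand depended on cluster width. Of the 1245 clusters opposite deep intronic positions, 61.4% (58.7 to 64.1) were 1 to 5 nt wide, against 21.8% (21.2 to 22.5) of deep intronic clusters. The gene strand exceeded the opposite strand 4.11-fold for clusters 1 to 5 nt wide, 10.5-fold at 6 to 20 nt, 69.9-fold (51.8 to 96.8) at 21 to 50 nt, 69.6-fold at 51 to 100 nt and 37.4-fold at 101 to 200 nt. Among width classes, the narrowest had the smallest excess. Beyond 100 kb from exons, 28.6% (24.7 to 32.9) of deep clusters were 1 to 5 nt wide, against 21.1% at 5 to 10 kb.

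First introns held more deep clusters than their share of deep sequence. Of the deep clusters, 14880 lay in an intron of a coding transcript, and 6707 of these (45.1%, 44.3 to 45.9) lay in the first intron, on 38.4% of the deep sequence. The density was 40.1 per Mb in first introns and 30.4 per Mb in later ones, and by rank it was 35.5 in intron 2, 29.3 in intron 3, 31.9 in introns 4 to 6, 27.5 in introns 7 to 12 and 20.1 from intron 13 on. With introns defined instead as gaps between the merged exons of a gene, 31.6% of clusters lay in the first gap on 27.8% of the deep sequence. Within the 807 genes that held a deep cluster and at least 10 kb of deep sequence in both kinds of intron, the first intron was denser in 414 and the later introns in 393, with medians of 17.2 per Mb in each. The pooled values over the same genes were 38.9 and 33.9 per Mb.

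The pooled first-intron excess was seen in introns up to 200 kb long, and the pooled values turned round in longer ones. In introns of 20 to 50 kb the density was 64.6 per Mb in first and 34.1 per Mb in later introns, and in introns of 100 to 200 kb it was 34.4 and 25.3. In introns over 200 kb it was 9.03 (8.16 to 9.96) in first and 13.7 (12.7 to 14.9) in later introns. Later introns over 200 kb held 630 clusters. Of these, 162 were in Ube2e2 intron 2, 130 in Immp2l intron 4 and 71 in Smyd3 intron 5. First introns over 200 kb held 397, with 72 in Ext1 and 58 in Magi1. The intervals treat clusters as independent, so the reversal cannot be taken as general to long introns. Over first and later introns together the density was between 44.2 and 45.6 per Mb in the 3 classes from 10 to 100 kb, 28.9 at 100 to 200 kb and 11.4 above 200 kb. The median deep cluster lay in an intron of 58.7 kb.

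**Figure D2:**
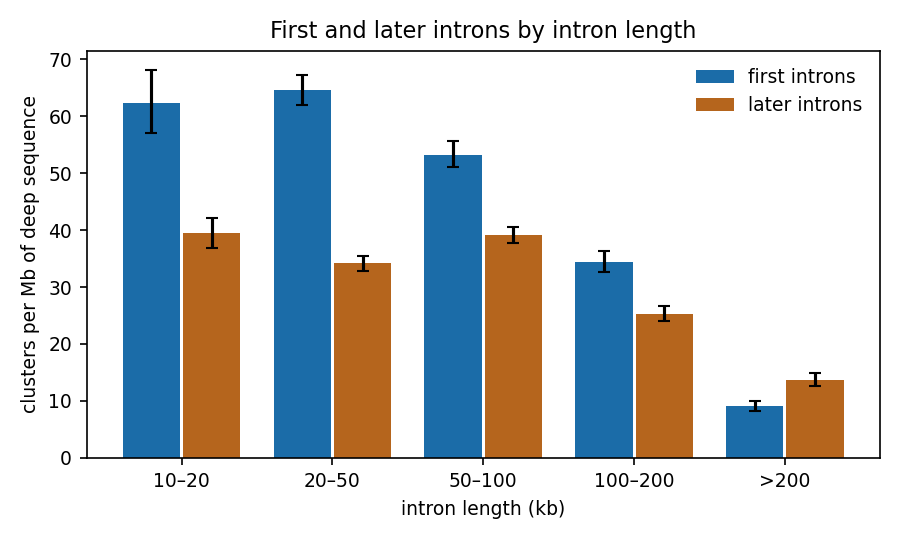
Deep intronic clusters per Mb of deep sequence in first and later introns, by intron length in kb; bars are pooled densities with exact Poisson 95% intervals. First introns are denser up to 200 kb, with 64.6 against 34.1 per Mb at 20 to 50 kb, and less dense above 200 kb, with 9.03 against 13.7. Of the 630 clusters in later introns over 200 kb, Ube2e2 intron 2 holds 162 and Immp2l intron 4 holds 130.

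Deep clusters lay more often upstream of the intron's midpoint than downstream of it. Upstream there were 9093 clusters at 41.0 per Mb (40.2 to 41.9) and downstream 5787 at 27.0 per Mb (26.3 to 27.7), a ratio of 1.52 (1.47 to 1.57). These intervals treat clusters as independent. With each run of clusters spaced within 1 kb counted once, the ratio was 1.37 (1.32 to 1.42). On the opposite strand of the same introns, 603 and 600 clusters gave a ratio of 0.964. The density peaked at 46.5 per Mb in bin 2 of 10 equal bins along the intron and fell to 19.2 in bin 9 and 9.23 in bin 10. By the distance rule, bins 1 and 10 hold deep sequence only from introns over 50 kb, on 18.4 and 16.8 Mb. Bin 5 has 58.3 Mb, so the bins do not sample the same introns. The upstream excess was 1.10-fold in introns of 10 to 20 kb, 1.27-fold at 20 to 50 kb and 1.79-fold, 1.87-fold and 1.69-fold in the 3 longer classes, and it was 1.47-fold in first and 1.54-fold in later introns. Of the 321 introns with 10 or more deep clusters and deep sequence on both sides, 237 were denser upstream and 78 downstream.

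**Figure D3:**
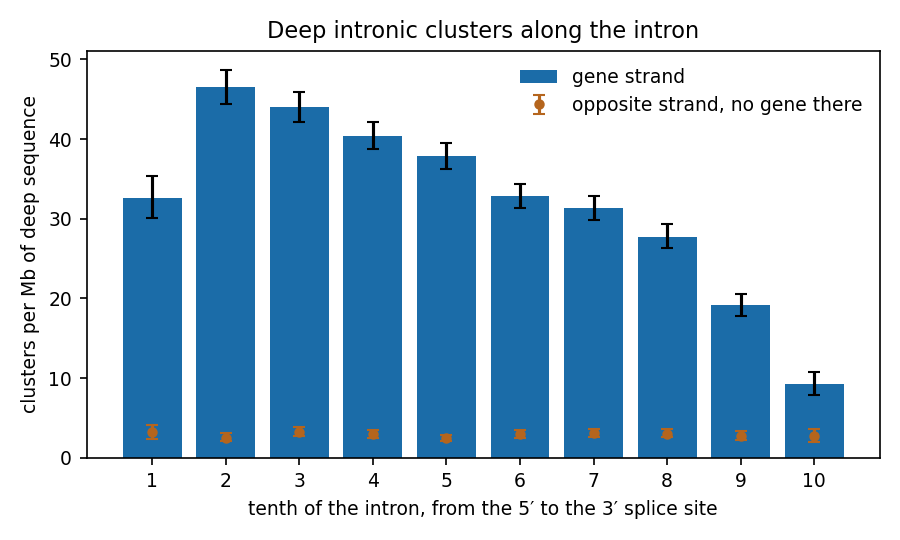
Deep intronic clusters per Mb of deep sequence in 10 equal bins of the intron from the 5′ to the 3′ splice site, with bars for the gene strand and points for the opposite strand where no gene is annotated; error bars are exact Poisson 95% intervals. The gene strand peaks at 46.5 per Mb in the bin next to the first and ends at 9.23, while the opposite strand has values of 2.46 to 3.26 throughout.

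Only 3729 of the 16953 introns with deep sequence (22.0%) held a deep cluster, and 1836 of them held a single one. The 323 introns with 10 or more held 7494 clusters. At the top, intron 2 of Ube2e2, a ubiquitin-conjugating enzyme gene, held 162 clusters, and intron 4 of Immp2l, a gene for a subunit of the mitochondrial inner membrane peptidase, held 130. Intron 1 of Rras2, a RAS-related GTPase gene, held 110, intron 1 of Ptprk 109 and intron 1 of Ankrd11 106. Among the 28 introns with 50 or more, 23 were denser upstream of their midpoint, and the other 5 were in Rps6kc1, Smyd3, Ncoa2, Svil and Ptprg. The 5 longest introns with a deep cluster held few for their size. The Kcnip4 and Asic2 introns held 2 each, the Gm37240 intron 3 and the Fgfr2 intron 11. The 4384418 nt first intron of Gm20388, a gene model that runs across other genes, held 35. The Fgfr2 intron, 2908817 nt long, also spans part of another gene, Tacc2, on the opposite strand.

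**Figure D4:**
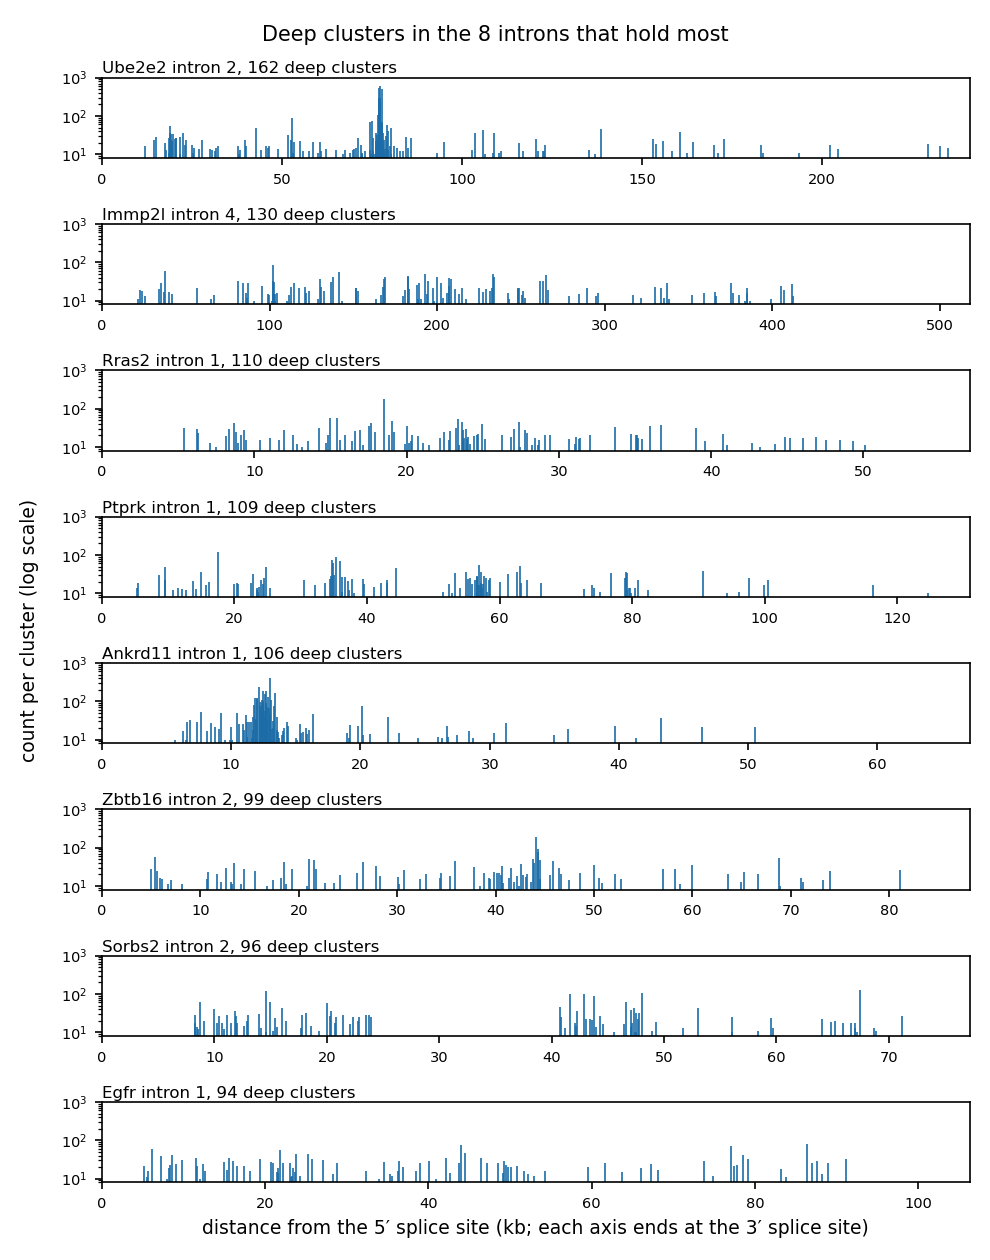
Each vertical line is a deep intronic cluster, placed by its distance in kb from the 5′ splice site and drawn to its pooled count (log scale), in the 8 introns that hold most of them. Ube2e2 intron 2 has its highest counts, up to 618, in 1 tight group, and Ankrd11 intron 1 has most of its 106 clusters within 1 narrow stretch near the 5′ end.

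Many deep clusters stood in dense runs. The nearest other cluster on the same strand was within 1 kb for 43.5% of them (42.8 to 44.3), against 50.7% of clusters 0.5 to 5 kb from exons and 2.41% of the clusters on the opposite strand. Chaining clusters of a gene whose midpoints lay within 1 kb of the next gave 8684 clusters that stood alone and 260 runs of 5 or more, which held 2888 clusters (19.0%) in 169 genes. The longest 27 runs, of 20 clusters or more, lay in 24 genes, spanned 3605 to 19760 nt and held 1028 clusters. Over the 219.292 kb that these 27 runs covered, the opposite strand held 2 clusters.

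The run with most clusters held 80 in 10692 nt of intron 1 of Ankrd11, at chr8:123025622-123036313, with a summed count of 4399. Ankrd11 encodes an ankyrin-repeat chromatin regulator. In Rps6kc1, a ribosomal S6 kinase-like gene, 67 clusters stood in 6898 nt of intron 6. Runs of 59 clusters lay in intron 2 of Farp1 over 9622 nt, and in intron 2 of Stk24, which encodes the kinase MST3, over 9722 nt. Clusters in runs of 20 or more were narrow but high: their median width was 7 nt and their median count 24, and 25.3% (22.7 to 28.0) reached the top 10% of all counts. Clusters that stood alone had a median width of 39 nt and a median count of 15, and 2.80% reached that level.

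By gene, deep clusters lay in 2534 of the 7610 coding genes with deep intronic sequence (33.3%). Of these genes, 973 held a single one and 148 held 20 or more, and the 148 together held 6999 clusters (46.1%). Ptprk, a receptor-type tyrosine phosphatase of cell contacts at chr10:28074820-28597397, held most, with 200. Lpp, a LIM-domain protein of focal adhesions at chr16:24393507-24992578, held 197 and Ube2e2 170. Zbtb20, a transcriptional repressor that silences alpha-fetoprotein in liver, held 150, Immp2l 143, and Sorbs2, an actin-linked adaptor, and Psd3, an exchange factor for ARF6, 133 each. Zbtb16, the zinc finger repressor PLZF, held 130, Ankrd11 126, and Slc4a4, a sodium bicarbonate cotransporter, 115.

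These leading genes differed in how far the clusters filled their deep sequence. Of all clusters in Immp2l 97.9% were deep, against 19.4% in Sorbs2, which held 554 clusters outside its deep sequence. Deep density was 765 per Mb in Sorbs2, below the 2820 per Mb in its sequence 0.5 to 5 kb from exons. In Ptprk it was 537 per Mb deep and 330 per Mb at 0.5 to 5 kb, and in Ube2e2 647 and 317. Over the 280 genes with 20 or more clusters in both zones together and at least 10 kb of each, the deep zone was denser in 167 and less dense in 113, with medians of 213 and 221 per Mb.

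Ranked by density, among genes with at least 20 kb of deep sequence and 5 deep clusters, Rras2 came first with 110 clusters in 46.976 kb, or 2342 per Mb, against a median of 133 per Mb in the 596 genes ranked. Prdm2, a PR-domain zinc finger gene, followed with 1629 per Mb, Stk24 with 1503 and Rbpms, an RNA-binding protein gene, with 1408. Dusp16, a phosphatase of MAP kinases, had 1336, Ankrd11 1324 and Tns1, the focal adhesion protein tensin 1, 1241. Map2k1, the kinase MEK1, had 1164, Bcl2l1, the apoptosis inhibitor BCL-XL, 1116 and Fam124a 1067. In Rbpms, Map2k1 and Fam124a the sequence 0.5 to 5 kb from exons was denser still, at 1778, 1928 and 1625 per Mb.

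By summed count, single clusters set the first places. In Cmss1, 1 cluster of 42884 counts at chr16:57391503-57391682 on the minus strand, in intron 1 and 68050 nt from the nearest exon, held 98.4% of the gene's 43588 deep counts, and Filip1l is annotated on the opposite strand there. In Gphn, which encodes the scaffold and cofactor-synthesis protein gephyrin, clusters of 7672 and 3202 counts lay side by side in intron 2, at chr12:78350861-78350933 and chr12:78351058-78351072. In Camk1d, a calcium/calmodulin-dependent kinase gene, 1 cluster held 1746 counts, or 59.0% of the gene's deep counts. The other deep counts were spread over many clusters: Ube2e2 summed to 6613 with a highest cluster of 618, Lpp to 6098 with 807, Ankrd11 to 5263 with 412, Ptprk to 4442 with 117, Sorbs2 to 3564, Farp1 to 3307, Rps6kc1 to 3244 and Zbtb20 to 3145. Prdm2, with clusters of 619 and 587, and Svil, which encodes the actin-binding protein supervillin, with 511, completed the 10 highest clusters beside a second one of 523 in Ube2e2.

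Gene lists are given beside all coding genes with deep sequence, at 33.4 clusters per Mb and 33.3% of genes with a deep cluster. The lists were chosen with earlier results of these data known, and several of the genes with most deep clusters stand in them. Their values are descriptions, and no difference from all coding genes was tested. Among hepatic transcription factors and nuclear receptors, 35 of 43 genes with deep sequence held a deep cluster, 602 in all at 113 per Mb, led by Zbtb20, Nfia with 80, Foxp1 with 59 and Tead1 with 41. Cell junction and actin-linker genes held 901 at 69.7 per Mb in 34 of 42 genes, led by Ptprk, Lpp, Sorbs2 and Magi1 with 66. Of their 12.9 Mb, Dmd and Dlg2 held 7 clusters each on 1713 and 1640 kb. Ctnna3, Magi2 and Ctnna2 held 3, 2 and 3 on 1389, 1268 and 895 kb. The genes Dmd, Dlg2, Ctnna3, Magi2 and Ctnna2 also stand in the list of long genes of neurons and muscle. In insulin and growth factor signalling, 22 of 30 genes held 245 at 54.8 per Mb, and Egfr, the epidermal growth factor receptor, had 94 of them, all in intron 1, ahead of Map3k13 with 24, the growth hormone receptor Ghr with 16 and the insulin receptor Insr with 15. Fgfr2 held 11 of the 245 on 2133 kb of the list's 4.47 Mb. Of this, 2112588 nt lay in an annotated intron 2 of 2908817 nt, which spans part of Tacc2 on the opposite strand. Erbb4 also stands in the neuron and muscle list. Pooled list densities depend on such long genes and gene models.

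Lipid and lipoprotein genes held 87 deep clusters at 87.1 per Mb in 18 of 35 genes, led by the sterol-binding protein gene Osbpl8 with 29, the phosphatidate phosphatase gene Lpin2 with 9, Numb with 7 and the hepatic lipase gene Lipc with 6. Among secreted plasma protein genes, 5 of 30 had deep sequence and 1, the vitamin D-binding protein gene Gc, held 9 deep clusters in 1.091 kb. Splicing regulators held 89 clusters at 22.9 per Mb (18.4 to 28.2) in 14 of 27 genes, led by Mbnl1 with 18, Qk and Rbfox2 with 15 each and Rbm47 with 13. The 5 regulators with most deep sequence, Rbfox1, Celf2, Khdrbs2, Rbfox3 and Celf4, held 9 of these clusters on 3.11 Mb. Without these 5, a choice made after their values were seen, the list held 80 clusters on 0.773 Mb, or 104 per Mb (82.1 to 129), so its pooled density lay below that of all genes only with them. Rbfox1 also stands in the list that follows. Long genes of neurons and muscle held 310 clusters on 47.048 Mb, 6.59 per Mb (5.88 to 7.36), against 3.09 per Mb on their opposite strand. At this low density, 46 of the list's 50 genes (92%) still held a deep cluster. The share of genes with a deep cluster was not adjusted for the amount of deep sequence in any list. Of the 310 clusters, Sox5 held 111 and Nrg1 46, Ptprd 15 and Lsamp and Csmd1 10 each. Without Sox5 and Nrg1, a choice made after their values were seen, the list held 3.38 per Mb (2.87 to 3.96) against 3.06 (2.56 to 3.62) on the opposite strand, and these intervals overlap. The median over a list's genes was 81.2 per Mb in insulin and growth factor signalling, 75.9 in hepatic transcription factors and nuclear receptors, 36.2 in junction genes, 17.7 in lipid genes, 2.94 in splicing regulators, 2.73 in long genes of neurons and muscle and 0 in plasma protein genes, against 0 over all coding genes with deep sequence. Medians lay below the pooled densities in all of these lists but insulin and growth factor signalling.

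**Figure D5:**
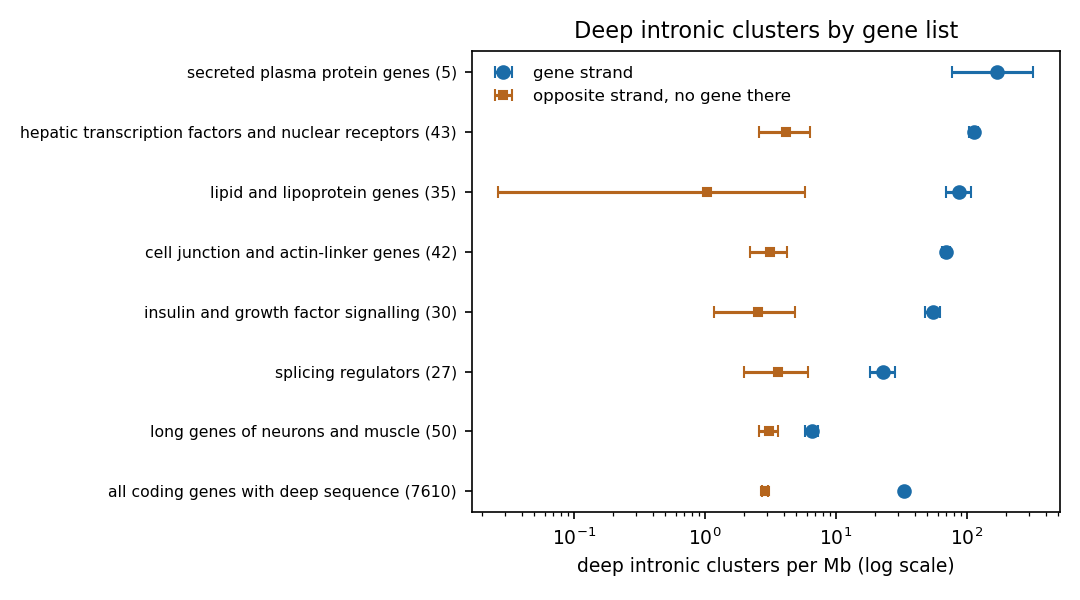
Deep intronic clusters per Mb (log scale) for each gene list on the gene strand, and on the opposite strand where no gene is annotated; bars are exact Poisson 95% intervals and the number in parentheses is the genes with deep sequence. Hepatic transcription factors stand at 113 and the long genes of neurons and muscle at 6.59 per Mb, against 33.4 for all coding genes. No opposite-strand point is drawn for plasma protein genes, which had 0 such clusters. The lists were chosen with earlier results of these data known.

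Of 51 marker genes of liver cell types, 19 have deep intronic sequence (37.3%, against 34.5% of all coding genes). The hepatocyte markers Cps1 and Hnf4a have it and held 6 and 0 deep clusters. The 6 endothelial, 3 Kupffer cell and 4 lymphocyte markers with deep sequence held 0, on 0.140, 0.0735 and 0.647 Mb. Their exact Poisson upper limits were 26.3, 50.2 and 5.70 per Mb, against 33.4 per Mb over all coding genes with deep sequence. Of all those coding genes, 33.3% held a deep cluster. So few markers cannot show which cell types the deep clusters came from. Of the 3 stellate cell markers with it, Reln held 3 and Dcn and Pdgfrb 0, and Pkhd1, the 1 cholangiocyte marker with it, held 12.

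Among the genes that the study discusses by name, Rbfox2, the gene of the factor itself, held 15 deep clusters, 11 in intron 2 and 4 in intron 1, with a summed count of 301 and a highest cluster of 52. Numb, an endocytic adaptor, held 7 with 129 counts, 6 of them in intron 1. Osbpl9, an oxysterol-binding protein gene, held 3 of 11, 11 and 13 counts. Scarb1, the gene of the high-density lipoprotein receptor SR-BI, held 2 of its 3 clusters in deep sequence, both in intron 1, at chr5:125310414-125310532 with 25 counts and at chr5:125323072-125323256 with 18. They were 119 and 185 nt wide and lay 6121 and 16680 nt from the nearest coding exon. Ptbp2 held no deep cluster on 13.819 kb of deep sequence, and Pla2g6, Sec31a and Snrnp70 have no deep sequence.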

How the data were processed

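RBFOX2 eiCLIP libraries of primary hepatocytes were analysed from 1 deposited list of crosslink clusters. According to the labels and the methods of the study, the authors demultiplexed with CASAVA 1.8.4, trimmed adaptors with cutadapt, aligned uniquely mapped reads to GRCm38 (mm10) with STAR 2.4.2a, removed PCR duplicates by random barcode and called clusters with Paraclu on cDNA starts pooled over the 3 libraries. The deposited value of each cluster is its count of pooled cDNA starts. A change of depth or of 1 library therefore cannot be seen. The depth, summed over clusters, was 2850863.

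Positions were placed on GENCODE M21, whereas the study names the VM20 release. Introns were those of 1 reference coding transcript per gene, filled in from the other coding transcripts. Densities divide clusters by same-strand deep intronic sequence, with exact Poisson intervals, and shares have Wilson 95% intervals. The opposite strand, at positions without an annotated gene, served as the background. Because no gene is annotated there, the strand ratios cannot separate RBFOX2 binding from the presence of transcript. Whether the gene-strand excess goes beyond RNA abundance was not tested. The assignment was checked on made-up annotations with known answers. Python 3.11.15, numpy 2.4.6, pandas 2.3.3 and scipy 1.17.1 were used.

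Named were the 10 genes with most deep clusters, with the highest summed count and with the highest density (at least 20 kb and 5 clusters), the 10 highest clusters, the 5 longest introns with a cluster, the genes the study names and up to 4 genes per list. The members, lists and named-gene rule were chosen with earlier results of these data known. The result of 1 gene list is not reported here. Another 266 clusters over 5 kb from coding exons lay in other annotated exons and were left out.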

Additional observations from a re-analysis of the deposited data

How the results depend on the processing

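The libraries were pooled before deposit, so leaving out a replicate could not be done. No paired analysis was possible because the clusters carry no replicate and there is 1 group. Taking the 5′ or 3′ end of a cluster in place of its midpoint, or leaving out the 10 highest clusters, moved no value that has an interval beyond it. Counting clusters deep in any coding gene gave 15449.

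At thresholds of 2000 and 10000 nt there were 23144 and 9493 clusters in 3960 and 1578 genes, at 0.0378 and 0.0288 per kb with strand ratios of 13.1 and 10.2, and the first-intron share at 2000 nt was 41.8%. Exons of all transcripts gave 0.0325 per kb. Counts at or above the median left 7438 clusters (0.0164 per kb, ratio 14.2, width 32 nt, count 23), and the top 10% left 966 in 365 genes (0.00213 per kb, ratio 15.2, width 37 nt, count 51, first-intron share 46.6%). A width of 6 nt or more gave 0.0261 per kb, ratio 23.8, width 40 nt and count 17. Merging clusters within 200 nt gave 0.0300 per kb, ratio 10.6 and width 35 nt. Gaps between merged exons gave a first-intron share of 31.6%, genes with at least 1 cluster 0.0432 per kb, and keeping positions opposite a gene a strand ratio of 6.98. Of alternatives added after seeing the data, the upstream to downstream ratio of 1.52 was 1.37 with each run counted once, 1.58 at 6 nt or more, 1.63 in the top 10% of counts and 1.51 without runs of 20 or more.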

Other observations

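Deep clusters also lay in genes without any other cluster. In 522 genes every cluster was deep intronic. Over the 3708 genes with deep sequence and no cluster outside it, the gene strand held 979 deep clusters at 4.40 per Mb (exact Poisson 95% interval 4.13 to 4.69), against 2.62 per Mb (2.41 to 2.85) on the opposite strand. In the 3902 genes with a cluster outside their deep sequence, the gene strand held 14198 deep clusters at 61.2 per Mb, against 3.14 per Mb on the opposite strand. Outside the introns of coding transcripts, 297 deep clusters lay in parts of a coding gene that only other transcripts span.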
